A study of Mus musculus with 16 samples.

Results

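Bcl2l15 and 9 other genes of the Bcl-2 family were followed in the proximal jejunum, the upper middle stretch of the small intestine. The 10 genes were picked by name as survival and death genes of the family, and Bcl2l15 was picked because it rose strongly after irradiation, so its rise is described here and not tested. All 10 were found among the 37620 genes of the files, and all 10 passed the filter on low counts that left 16558 genes for testing. The animals were male CBA/J mice, an inbred strain, aged 8 weeks, and the labels name no transgene or further agent. The 4 groups of 4 libraries were methionine adequate diet with 0 Gy, methionine adequate diet with 8.5 Gy of gamma rays, methionine supplemented diet (300%) with 0 Gy, and methionine supplemented diet with 8.5 Gy. The design text names 6 days without saying whether these count time on the diet or time after exposure. The labels tie no library to an animal and name no batch, so every p-value measures the spread between libraries, which may be technical in part.

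Proteins of the Bcl-2 family decide at the outer mitochondrial membrane whether a cell dies by apoptosis. Guardians such as Bcl-2, Bcl-xL and Mcl-1 bind and hold back pore formers such as Bak, while Bok is a pore former that they restrain little. BH3-only proteins such as Bid, Bim and Bmf carry a single short helix that occupies the groove of the guardians or activates the pore formers. Once pores open, cytochrome c leaves the mitochondrion and activates caspases through Apaf-1. In the intestine, Bcl-xL and Mcl-1 keep epithelial cells alive, and apoptosis of crypt cells is an early event after gamma irradiation. Bcl2l14 and Bcl2l15 are less studied relatives, and Bcl2l15 encodes Bfk, a protein found mainly in the gut.

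Depth was between 2.567 and 15.51 M (mega) counts per library, and 3 libraries lay under 4 M: replicate 1 of the unirradiated adequate group, replicate 2 of the irradiated adequate group and replicate 1 of the irradiated supplemented group. Values are given as CPM, counts per M counts of a library total scaled by TMM (trimmed mean of M-values), with mean ± SD of 4 libraries. The intestinal transcription factors Cdx1 and Cdx2 summed to 109 to 189 CPM in every library and 8 genes of absorptive enterocytes to 13554 to 54058 CPM. The 8 stomach genes summed to 3.52 to 11.1 CPM and the 4 exocrine pancreas genes to 1.53 to 10.9 CPM, with Gkn2 of the stomach at 0 in every library. The tissue is whole, so fewer cells of a type and less RNA per cell cannot be told apart. Between doses, 3 red cell genes summed to 71.9 to 397 CPM without and 3.28 to 18.9 CPM with irradiation, and 6 B and plasma cell genes to 180 to 454 and 69.7 to 167 CPM. Sums were higher with irradiation for 5 Paneth cell genes (2735 to 6077 and 7937 to 15839 CPM), 4 stem cell genes (228 to 351 and 381 to 901 CPM) and 5 goblet cell genes (7933 to 9644 and 10571 to 17213 CPM), and, within each diet, for 5 myeloid genes (123 to 175 and 182 to 259 CPM on the adequate diet, 126 to 195 and 241 to 348 CPM on the supplemented diet). Some genes of these lists went against their sums. On the adequate diet the median of the goblet gene Clca1 was 577 CPM without and 373 CPM with irradiation. The medians of the myeloid genes Cd68 (4.37 and 3.92 CPM) and Adgre1 (8.56 and 7.9 CPM) were also lower with irradiation on that diet. On the supplemented diet the medians of Clca1 (497 and 476 CPM) and the myeloid gene Csf1r (80.9 and 80.5 CPM) were lower with irradiation. There the median of the B cell gene Ms4a1 was higher (0.0988 and 0.339 CPM). Most of the B and plasma cell sum was Jchain, at 175 to 427 CPM without and 67.2 to 162 CPM with irradiation. The part of the shifts in the sums in the results on the 10 genes was not tested.

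Bcl2l15 went from about 1 CPM to about 30 CPM with irradiation on both diets. Replicates 1 to 4 of the adequate diet at 0 Gy had 2.30, 1.06, 0.928 and 1.33 CPM, and those at 8.5 Gy had 28.6, 49, 33.3 and 3.75 CPM. On the supplemented diet the libraries had 0.732, 0.514, 1.2 and 1.27 CPM without irradiation and 42.3, 26.3, 26.8 and 32.6 CPM with it. The groups did not overlap on either diet, which held for 19.5% of all tested genes on the adequate and 18.6% on the supplemented diet, and replicate 4 of the irradiated adequate group stood far below the other 7 irradiated libraries. The mean went from 1.40 ± 0.62 to 28.6 ± 18.7 CPM on the adequate diet, a 20.4-fold difference, and from 0.929 ± 0.366 to 32.0 ± 7.43 CPM on the supplemented diet, a 34.4-fold difference. Without replicate 4, the irradiated adequate mean was 36.9 ± 10.7 CPM (n = 3), 26.3-fold above the unirradiated mean. The lowest irradiated library was 1.63-fold above the highest unirradiated library on the adequate diet, 12.4-fold without replicate 4, and 20.6-fold on the supplemented diet. In the deposited TPM the folds were 10.7 and 14.2, on a scale where the median of all tested genes was also lower after irradiation.

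**Figure D1:**
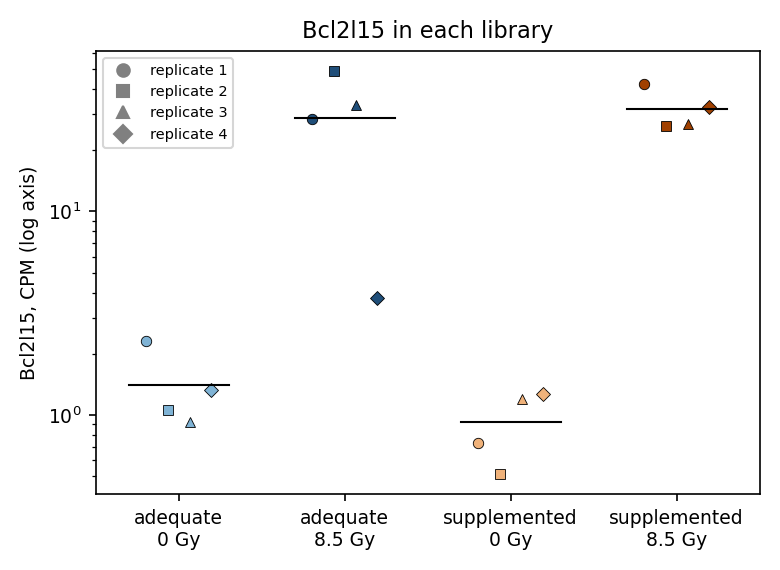
Bcl2l15 in CPM on a log axis, by diet and dose, with a point for each of the 16 libraries and a line at the mean of each group of 4. Unirradiated libraries lie between 0.514 and 2.30 CPM, and irradiated ones between 26.3 and 49 CPM except replicate 4 of the adequate group at 3.75 CPM.

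The unirradiated values of Bcl2l15 rest on few reads, from 5 counts in replicate 2 of the supplemented group to 14 in replicate 4 of the adequate group. Fitted log2 fold changes, with standard error, were 4.47 ± 0.65 on the adequate and 5.06 ± 0.64 on the supplemented diet. Over the 14 other processing settings and subsets of libraries tried they stayed between 3.8 and 4.87 and between 4.86 and 5.25. In the irradiated adequate library with 3.75 CPM of Bcl2l15, the 8 absorptive enterocyte genes summed to 16318 CPM, against 27713 to 42206 CPM in the other 3 libraries of its group. The same library had 901 CPM of 4 stem cell genes against 381 to 489 CPM, 595 CPM of 3 cycling genes against 248 to 310 CPM, and 1496 CPM of 4 fibroblast genes against 582 to 817 CPM. The irradiated supplemented library with the lowest enterocyte sum, 13554 CPM, had 42.3 CPM of Bcl2l15, the highest of its group. That library was also 1 of the 3 under 4 M counts. Each of these 3 had the highest Bcl2l15 value of its group, at 2.30, 49 and 42.3 CPM. Whether the cell make-up or the depth of a library bears on its Bcl2l15 level was not tested.

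The DNA in front of Bcl2l15 is shown beside that of Bcl2l14, its less studied relative, and of Mcl1, a guardian, because the share of CG pairs differed widely between the 10 genes. RefSeq promoter windows, from 250 bases before to 50 after an annotated start, were found for all 10 genes, 16 windows in all. The Bcl2l15 window held 0 CG pairs and 38.3% G or C. Of 32851 windows in the table, 5.43% held no CG pair and 7.91% had a G or C share that low, and the medians were 7 pairs and 52.7%. The other 15 windows of the 10 genes held 1 to 44 CG pairs and 45.7 to 76.0% G or C. Below are the 150 bases that end before the most upstream annotated start. That start is the RefSeq one for Mcl1 and the gene start of the GENCODE annotation for Bcl2l15 and Bcl2l14. The bases are cut from the RefSeq windows of build GRCm38.p6, all on the plus strand, with CG pairs in capitals. They are chr3:103832451-103832600 for Bcl2l15 (0 pairs, 38.7% G or C), chr6:134396168-134396317 for Bcl2l14 (3 pairs, 46%) and chr3:95658571-95658720 for Mcl1 (20 pairs, 69.3%).
Bcl2l15: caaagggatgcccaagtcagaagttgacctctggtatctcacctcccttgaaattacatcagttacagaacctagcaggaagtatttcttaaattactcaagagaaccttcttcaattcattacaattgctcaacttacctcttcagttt
Bcl2l14: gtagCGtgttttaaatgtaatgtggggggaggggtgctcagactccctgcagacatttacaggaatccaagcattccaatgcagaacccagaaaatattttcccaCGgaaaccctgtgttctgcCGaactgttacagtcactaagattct
Mcl1: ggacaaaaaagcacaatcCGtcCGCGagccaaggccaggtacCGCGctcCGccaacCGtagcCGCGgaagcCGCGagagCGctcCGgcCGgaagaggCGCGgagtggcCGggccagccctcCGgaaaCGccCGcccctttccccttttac

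Short motifs were searched on both strands of the windows. The FOXO motif GTAAACA was found in 1 of the 16 windows, that of Bcl2l11, at position -227 from its start, and in 3.65% of all windows. The NF-kB motif, GGGA and CC parted by any 4 bases, was found in 4, those of Bok, Bmf, Bcl2l11 and Bak1, and in 20.7% of all windows. The STAT motif TTCNNNGAA, in 8.3% of all windows, and the p53 element, in 0.0731%, were in 0 of the 16. None of the 4 motifs lay in the Bcl2l15 window, and no match overlapped another.

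Irradiation was then compared for the other 9 genes, to ask whether guardians, pore formers and BH3-only genes moved with it. Genes were called at an adjusted p under 0.05 in the edgeR quasi-likelihood test, with Benjamini-Hochberg adjustment over all 16558 genes. Of the 10 genes, 1 was called on the adequate diet, where 13.7% of all tested genes were called, and 1 on the supplemented diet, where 15.2% were. That gene was Bcl2l15 in both, and as the choice of genes used this contrast, nothing is read from the counts. For the other 9, log2 fold changes were between -0.24 and 0.37 on the adequate diet (smallest adjusted p = 0.161) and between -0.30 and 0.33 on the supplemented diet (smallest adjusted p = 0.226). The 95% intervals of all 9 lay within a 2-fold change on each diet, from -0.59 to 0.87 and from -0.66 to 0.79 on the log2 scale.

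**Figure D2:**
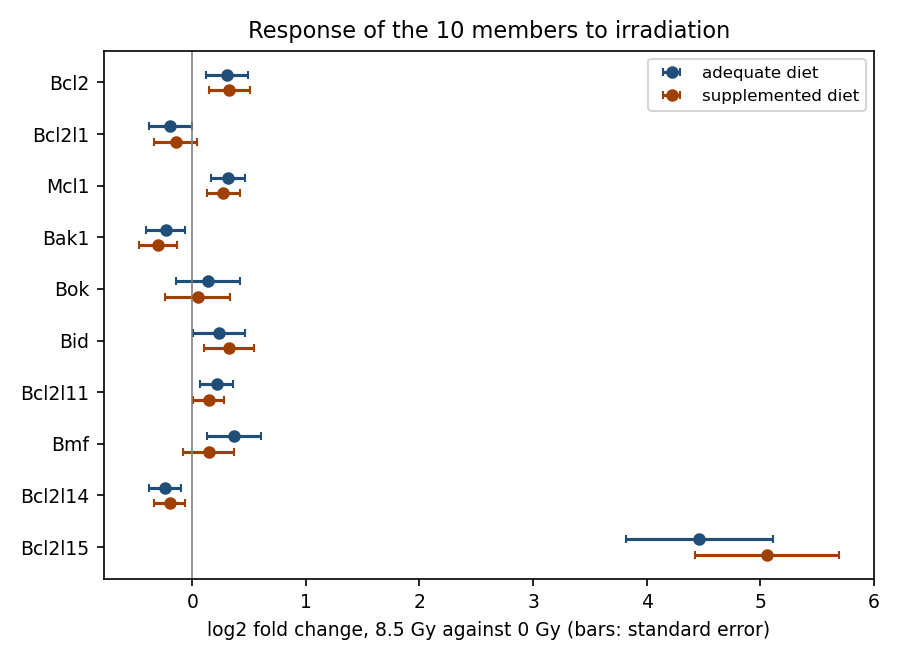
Log2 fold change of 8.5 Gy against 0 Gy for the 10 genes on each diet, with standard errors as bars. Bcl2l15 lies at 4.47 and 5.06, while the other 9 lie between -0.30 and 0.37.

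Of the guardians, Mcl1, whose protein turns over quickly and holds Bak in check, had the lowest adjusted p of the 9 genes on both diets. Its adequate libraries had 110, 101, 118 and 99.5 CPM without and 138, 130, 170 and 93.5 CPM with irradiation, so 3 of the 4 irradiated libraries lay above all unirradiated ones and replicate 4 lay below them. Its supplemented libraries had 93.0, 96.0, 103 and 106 CPM without and 110, 115, 118 and 136 CPM with irradiation, and the groups did not overlap. Such a gap in either direction was seen for 18.6% of all tested genes in that comparison, and Mcl1 was the 1 gene of the 9 with one. The log2 fold changes were 0.31 ± 0.15 (adjusted p = 0.161) and 0.27 ± 0.15 (adjusted p = 0.226), so Mcl1 was not called. Without replicate 4 of the irradiated adequate group, the library that was also lowest in Bcl2l15, the adequate value of Mcl1 was 0.45 with an adjusted p = 0.0188, which is a call.

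Bcl2, the founding guardian, had 8.05, 11.6, 12.2 and 13.5 CPM without and 14.4, 8.71, 16.4 and 16.2 CPM with irradiation on the adequate diet. On the supplemented diet it had 13.9, 11.9, 14.5 and 9.98 CPM without and 17.9, 14.2, 16.8 and 14.7 CPM with irradiation. The groups overlapped on both diets, and the log2 fold changes were 0.30 ± 0.18 (adjusted p = 0.290) and 0.33 ± 0.18 (adjusted p = 0.237). The antisense gene D630008O14Rik overlaps Bcl2 and had 27.9 to 57.7 counts per group, summed over its 4 libraries. Bcl2l1, which encodes Bcl-xL, had 54.4, 42.9, 42.1 and 42.2 CPM without and 38.1, 41.9, 47.8 and 30.4 CPM with irradiation on the adequate diet. Its supplemented libraries had 48.3, 26.4, 32.3 and 40.8 CPM without and 24.6, 31.1, 36.8 and 39.7 CPM with irradiation. The Bcl2l1 values overlapped on both diets, with log2 fold changes of -0.19 ± 0.19 (adjusted p = 0.540) and -0.15 ± 0.19 (adjusted p = 0.646).

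Of the pore formers, Bak1 had 112, 92.6, 107 and 94.1 CPM without and 77.8, 105, 84.0 and 79.1 CPM with irradiation on the adequate diet. On the supplemented diet it had 108, 92.9, 98.0 and 120 CPM without and 67.2, 74.6, 74.6 and 123 CPM with irradiation, so 3 irradiated libraries lay below all unirradiated ones and replicate 4 lay above them. The log2 fold changes were -0.23 ± 0.17 (adjusted p = 0.389) and -0.30 ± 0.17 (adjusted p = 0.252), and neither was called. Without replicate 4 of the irradiated supplemented group the value was -0.54 with an adjusted p = 0.00719, which is a call. In that replicate the 8 enterocyte genes summed to 54058 CPM, against 13554 to 26627 CPM in the other 3 libraries of its group, and the part of this in its Bak1 level was not tested. Bok, a pore former that guardians restrain little, had log2 fold changes of 0.14 ± 0.28 (adjusted p = 0.793) and 0.05 ± 0.29 (adjusted p = 0.939). The deposited counts do not state strand, and Bak1 overlaps Ggnbp1 on the other strand in the annotation. Ggnbp1 had 106 to 132 counts per group, summed over its 4 libraries.

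Of the BH3-only genes, Bid, which links death receptors to mitochondria once caspase-8 has cut it, had group means of 6.17 ± 1.89 and 7.26 ± 1.51 CPM at 0 and 8.5 Gy on the adequate diet. The supplemented means of Bid were 7.06 ± 1.20 and 8.94 ± 2.07 CPM, and the log2 fold changes were 0.23 ± 0.23 (adjusted p = 0.540) and 0.32 ± 0.22 (adjusted p = 0.349). Bid overlaps Bcl2l13 on the other strand, so reads of the overlap may have been shared between them. Bcl2l13 had 1449 to 2136 counts per group, summed over its 4 libraries.

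Bcl2l11, which encodes Bim and binds all guardians, had libraries of 12.4 to 19.3 CPM without and 15.3 to 20.8 CPM with irradiation on the adequate diet, and of 15.3 to 16 and 15.3 to 18.1 CPM on the supplemented diet. Its log2 fold changes were 0.21 ± 0.14 (adjusted p = 0.347) and 0.14 ± 0.14 (adjusted p = 0.533). Bmf, which senses loss of anchorage to the matrix, had 0.37 ± 0.24 (adjusted p = 0.327) and 0.14 ± 0.23 (adjusted p = 0.718), on group means of 4.17 to 5.90 CPM. Bcl2l14, which encodes Bcl-G, had group means of 23.9 ± 2.87 and 20.6 ± 2.13 CPM at 0 and 8.5 Gy on the adequate diet and of 24.7 ± 3.54 and 21.2 ± 3.89 CPM on the supplemented diet. Its log2 fold changes were -0.24 ± 0.14 (adjusted p = 0.285) and -0.20 ± 0.14 (adjusted p = 0.366). Of the 9 genes, 6 had a value above 0 and 3 (Bcl2l1, Bak1 and Bcl2l14) a value below 0 on each diet.

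These directions depended on the measure used, scaled counts or TPM. In the deposited TPM, which share a fixed total in each library, the median over all tested genes was 1.09 lower after irradiation on the adequate diet and 1.27 lower on the supplemented diet, on the log2 scale of the ratio of group means. All 9 genes were lower in TPM after irradiation on both diets, by 0.66 to 1.29 and by 0.90 to 1.44, for example Mcl1 at 11.4 ± 1.10 and 6.76 ± 1.88 TPM on the adequate diet. Relative to the median gene, the 9 lay between -0.20 and 0.43 on the adequate and between -0.17 and 0.37 on the supplemented diet, with 5 of the 9 above 0 on each diet. The sign then differed from the fit for Bmf on the adequate diet and for Bcl2l1, Bcl2l11 and Bok on the supplemented diet. TPM also divide by a gene's effective length, a deposited value for each library. For Bmf on the adequate diet it was 1607.37 to 1836.7 bases without and 1476.9 to 3672.37 with irradiation. For Bok on the supplemented diet it stayed between 1384.63 and 1386.39 bases. The part of these lengths in the turned signs was not tested. Bcl2l15 went from 0.515 ± 0.308 to 5.53 ± 3.43 TPM and from 0.382 ± 0.175 to 5.45 ± 1.51 TPM. That is 10.7-fold and 14.2-fold as such, and 22.8-fold and 34.4-fold relative to the median gene.

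**Figure D3:**
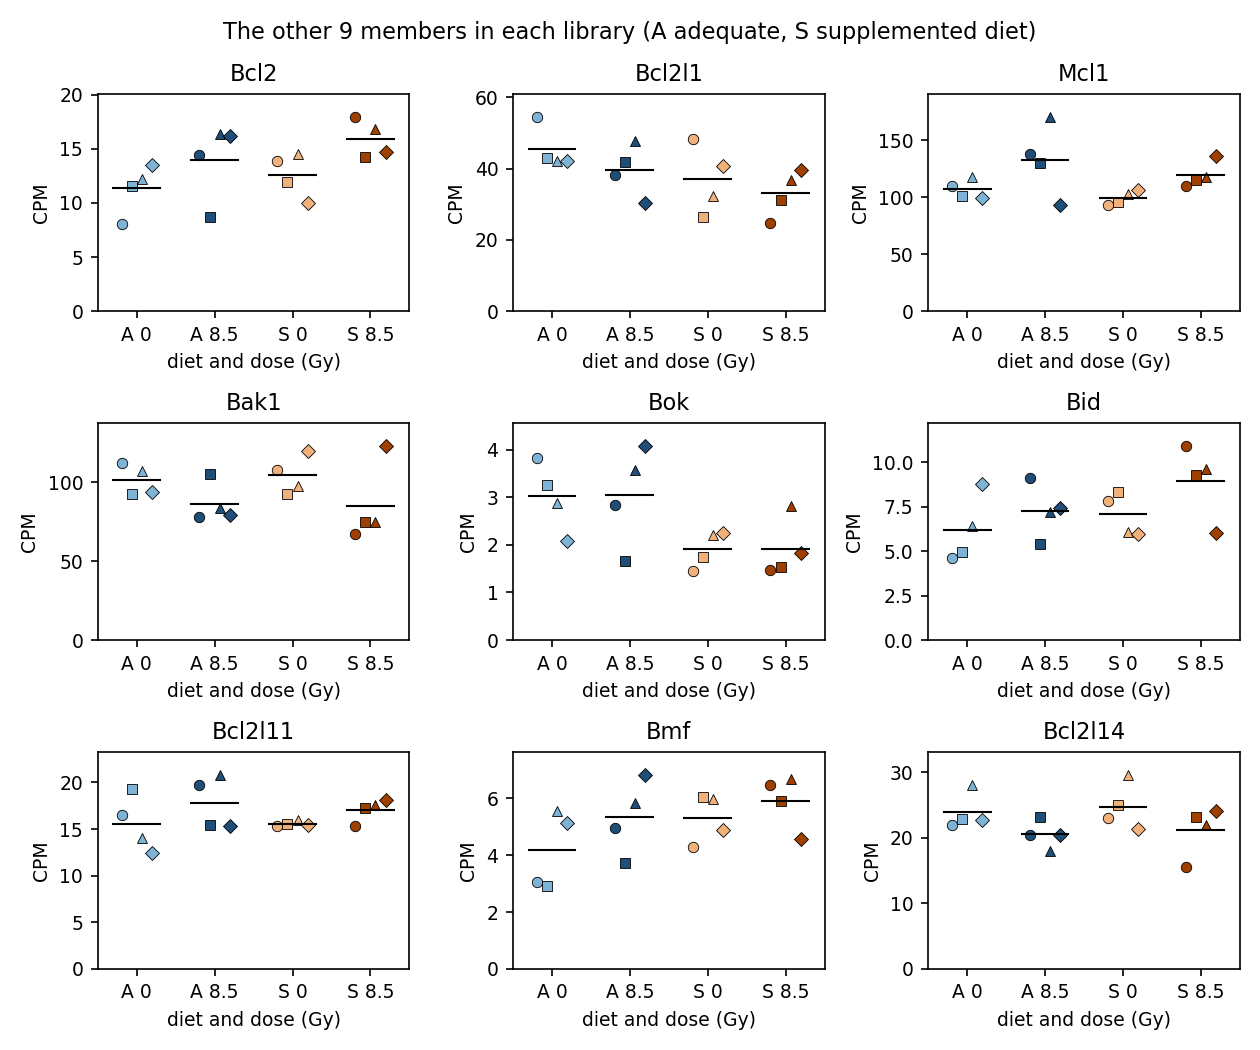
CPM of the 9 genes other than Bcl2l15 in each library, by diet (A adequate, S supplemented) and dose in Gy, with a line at each group mean and replicates 1 to 4 as circle, square, triangle and diamond. Doses overlap in every panel on both diets except Mcl1 on the supplemented diet, and Bok lies near 3 CPM on the adequate and near 1.9 CPM on the supplemented diet.

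Levels were set between genes per length, as CPM divided by the gene's median effective length in kilobases. In the unirradiated adequate group Bak1 stood highest at 103 ± 9.91 CPM per kilobase, followed by Mcl1 at 31.1 ± 2.47 and Bcl2l1 at 29.7 ± 3.94, whose libraries overlapped, and by Bcl2l14 at 14.7 ± 1.76. The BH3-only genes followed, with Bcl2l11 at 5.22 ± 1.02, Bid at 3.90 ± 1.19 and Bmf at 2.2 ± 0.726 CPM per kilobase. The lowest were Bok at 2.18 ± 0.528, Bcl2 at 1.58 ± 0.326 and Bcl2l15 at 1.54 ± 0.679 CPM per kilobase, and from Bcl2l11 down each gene overlapped the next.

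After irradiation Bcl2l15 stood at rank 3 on the adequate diet, with 31.4 ± 20.5 CPM per kilobase, and at rank 2 on the supplemented diet, with 35 ± 8.13. On both diets its libraries overlapped those of Mcl1, at 38.7 ± 9.15 and 34.9 ± 3.31 CPM per kilobase. The other 9 genes kept their order on the adequate diet. On the supplemented diet Bcl2 and Bok were the lowest of the 9 at either dose. Summed over Bcl2, Bcl2l1 and Mcl1, guardians came to 62.4 ± 4.71 CPM per kilobase without and 66.5 ± 13.8 after irradiation on the adequate diet, and to 54.8 ± 6.22 and 58.7 ± 7.23 on the supplemented diet. The pore formers Bak1 and Bok came to 105 ± 10.2 and 89.9 ± 12.4, and to 107 ± 12.2 and 87.4 ± 26.1 CPM per kilobase. These sums overlapped between doses on each diet. Ranked by the deposited TPM, the order in each group was the same, except that Bid and Bcl2l11 changed places in the irradiated supplemented group and Bmf and Bok tied in the irradiated adequate group.

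**Figure D4:**
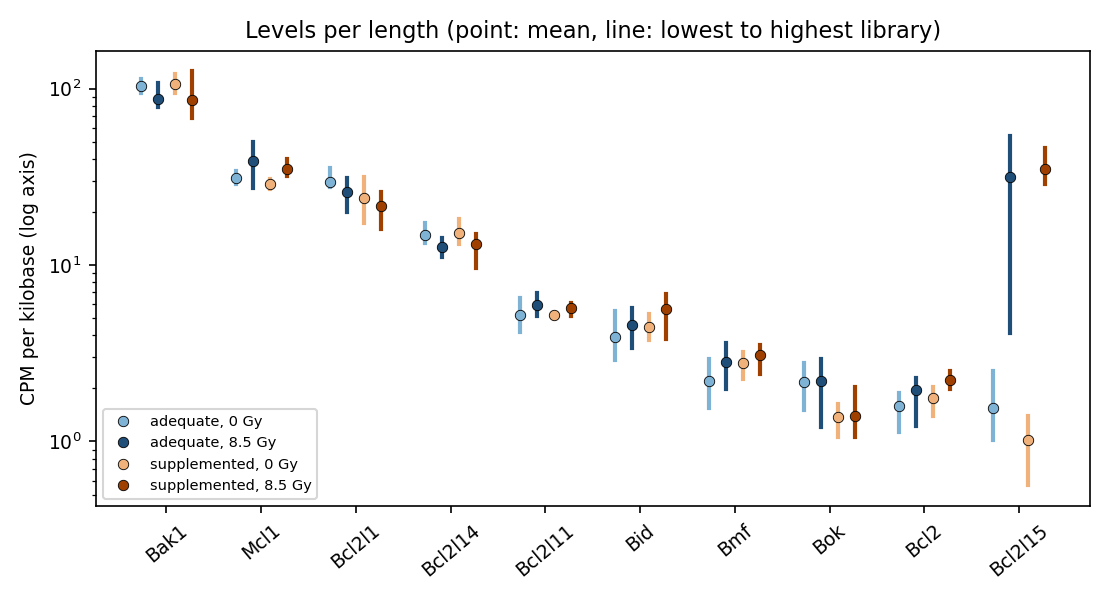
CPM per kilobase of effective length on a log axis for the 10 genes, with the mean of 4 libraries as a point and the lowest to highest library as a line in each group. Bak1 lies highest in every group, and Bcl2l15 moves from the lowest place without irradiation to the level of Mcl1 with it.

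The diets were compared at each dose. The rule that chose the genes did not name this contrast, though earlier results of these data were known. None of the 10 genes was called without irradiation, where 0.199% of all tested genes were called, and none after it, where 0.0% were. At an unadjusted p under 0.05 in edgeR's test, 0 of the 10 genes passed without irradiation and 1 after it, and 11.9% and 5.26% of all genes did. DESeq2 and limma voom also called 0 of the 10 at either dose. Bcl2l15 had a log2 fold change, supplemented against adequate, of -0.39 ± 0.85 without irradiation (adjusted p = 0.911, 95% interval -2.2 to 1.43) and of 0.20 ± 0.47 after it (adjusted p = 1.0, 95% interval -0.81 to 1.22). The second value was -0.20 without replicate 4 of the irradiated adequate group.

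Bok was the gene with the lowest p between diets at each dose. Its unirradiated libraries had 3.83, 3.27, 2.89 and 2.09 CPM on the adequate and 1.46, 1.75, 2.2 and 2.25 CPM on the supplemented diet, and its irradiated libraries 2.85, 1.66, 3.58 and 4.08 against 1.47, 1.54, 2.82 and 1.84 CPM. The supplemented means, 1.91 ± 0.376 and 1.92 ± 0.624 CPM, were below the adequate means, 3.02 ± 0.731 and 3.04 ± 1.05 CPM, while the libraries overlapped at both doses. The log2 fold changes were -0.60 ± 0.29 (adjusted p = 0.419) and -0.70 ± 0.28 (adjusted p = 0.927), and Bok was not called. It was counted with 4 to 49 reads per library. The other 8 genes beside Bcl2l15 and Bok had values between -0.29 and 0.31 without and between -0.24 and 0.24 with irradiation.

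The difference between the diets in the response to irradiation was tested as an interaction, supplemented response minus adequate response. None of the 10 genes was called, and 0.0% of all tested genes were. At an unadjusted p under 0.05 none of the 10 passed, against 4.46% of all genes, and DESeq2 called 1 gene in all. Bcl2l15 had an interaction of 0.59 ± 0.97 on the log2 scale (adjusted p = 1.0), with a 95% interval from -1.49 to 2.68, which spans 0.356-fold to 6.39-fold. The other 9 genes had interactions between -0.22 and 0.09.

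Genes with a pattern like Bcl2l15 were sought among 12472 protein-coding genes by Pearson's r of log2 CPM over the 16 libraries, as a description in which all points share the split by dose. The highest were B3galt5 (r = 0.979), a galactosyltransferase of glycan chains, S100a6 (0.972), a calcium-binding protein, Abi2 (0.966), a regulator of the actin cytoskeleton, Resf1 (0.961) and Maco1 (0.958). B3galt5 had 3.45, 3.44, 3.09 and 3.04 CPM without and 16.7, 18.3, 11.9 and 6.66 CPM with irradiation on the adequate diet, with the lowest irradiated value in the library that was lowest in Bcl2l15. Of the 9 other family genes, Mcl1 had the highest r with Bcl2l15, 0.732.

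With each library taken as its deviation from its group mean, the genes most like Bcl2l15 were Enpep (r = 0.935), an aminopeptidase of the enterocyte brush border, Use1 (0.929), a SNARE protein of vesicle traffic, Ugt1a1 (0.923), which conjugates bilirubin, Aldh1a1 (0.906), which oxidises retinal, and Sord (0.905), which oxidises sorbitol. Without the deviating library of the irradiated adequate group these r fell to 0.65, 0.638, 0.586, 0.593 and 0.473. Enpep had 1163, 1715, 1356 and 246 CPM in the irradiated adequate group, and 426 ± 96.4 CPM without irradiation. The likeness within groups thus rests in large part on 1 library.

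Other family and death pathway genes were read from 4 lists, of which 60 genes were tested. Of 12 tested other family genes, 3 rose and 0 fell on the adequate diet, and 1 rose and 1 fell on the supplemented diet, with median log2 fold changes of 0.077 and 0.020 against 0.006 and 0.007 over all genes. Over all genes, 7.13% rose and 6.58% fell on the adequate diet and 8.03% rose and 7.21% fell on the supplemented diet. Bnip3l, a mitophagy receptor also called Nix, went from 30.0 ± 4.25 to 43.4 ± 3.64 CPM (0.53 ± 0.12, adjusted p = 0.00962) and from 31.4 ± 3.18 to 43.8 ± 5.60 CPM (0.49 ± 0.12, adjusted p = 0.0124). Bcl2l13, a mitochondrial relative that also acts in mitophagy, went from 54.1 ± 1.65 to 38.7 ± 1.38 CPM on the supplemented diet (-0.49 ± 0.08, adjusted p = 0.00112). Pmaip1, the p53 target that encodes the BH3-only protein Noxa, rose on the adequate diet from 14.8 ± 2.91 to 38.5 ± 15.8 CPM (1.38 ± 0.35, adjusted p = 0.0174). Its call was lost without replicate 4 of the unirradiated group (adjusted p = 0.0512), without replicate 1 of the irradiated group (adjusted p = 0.0542) and without the 3 smallest libraries (adjusted p = 0.0594). The third rise on the adequate diet was Bnip3, a close relative of Bnip3l (0.92 ± 0.26, adjusted p = 0.0268), whose call was lost in 7 of 14 alternatives.

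Of 22 genes of the mitochondrial death pathway, 1 rose and 2 fell on the adequate diet and 1 rose and 6 fell on the supplemented diet, with medians of -0.043 and -0.136. Apaf1, the scaffold that activates caspase-9, was the rise on both, from 54.6 ± 6.43 to 78.3 ± 9.17 CPM (0.52 ± 0.13, adjusted p = 0.0152) and from 53 ± 8.59 to 78.3 ± 7.25 CPM (0.56 ± 0.13, adjusted p = 0.00799). Casp2, an initiator caspase, fell on the supplemented diet from 29.4 ± 1.41 to 20.5 ± 2.05 CPM (-0.53 ± 0.12, adjusted p = 0.00949) in every alternative. On the adequate diet the falls of Casp2 (-0.44 ± 0.13, adjusted p = 0.0284) and Aifm1, a mitochondrial flavoprotein (-0.39 ± 0.11, adjusted p = 0.0297), were each lost in 9 of 14 alternatives.

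Of 12 death receptor genes, 0 rose and 1 fell on the adequate diet and 1 rose and 2 fell on the supplemented diet, with medians of 0.053 and -0.173. Tnfsf10, the ligand TRAIL, fell from 210 ± 14.7 to 131 ± 27.5 CPM on the supplemented diet (-0.68 ± 0.15, adjusted p = 0.00561), and on the adequate diet its fall (-0.47 ± 0.15, adjusted p = 0.0440) was lost in 10 of 14 alternatives. Ripk1, a kinase of the receptor complex, rose from 43.1 ± 1.77 to 59.9 ± 3.11 CPM on the supplemented diet (0.48 ± 0.12, adjusted p = 0.0109). Mlkl, the membrane executor of necroptosis, fell on that diet from 28.5 ± 4.70 to 17.2 ± 1.5 CPM (-0.73 ± 0.20, adjusted p = 0.0198), a call lost without replicate 1 of the unirradiated group (adjusted p = 0.0612), replicate 2 (0.0645) or replicate 3 (0.0638) of the irradiated group, or the 3 smallest libraries (0.0515).

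Of 14 regulators of the 10 genes, 1 rose and 0 fell on the adequate diet and 2 rose and 1 fell on the supplemented diet, with medians of 0.112 and 0.088. Bag4, a chaperone cofactor that binds death receptors, rose on the supplemented diet from 17.9 ± 3.45 to 30.8 ± 3.22 CPM (0.80 ± 0.15, adjusted p = 0.00185). Pim3, a kinase that phosphorylates Bad, rose on the adequate diet from 28.9 ± 6.92 to 57.7 ± 21.1 CPM (0.97 ± 0.23, adjusted p = 0.0108), a call lost without the 3 smallest libraries (adjusted p = 0.073). Usp9x, a deubiquitinase that spares Mcl-1 from degradation, rose on the supplemented diet (0.45 ± 0.13, adjusted p = 0.0236), a call lost in 6 of 14 alternatives. The fall on that diet was Bag3 (-0.51 ± 0.15, adjusted p = 0.0306), a call lost in 7 of 14 alternatives. Of the 23 calls over the 4 lists and both diets, 9 held in all 14 alternatives. None of the 60 genes was called between diets at either dose in the fit of all 16 libraries. At an unadjusted p under 0.05 in edgeR's test there were 7 without irradiation and 1 after it, against 11.9% and 5.26% of all genes. Closest was Mlkl without irradiation, at 14.3 ± 1.94 CPM on the adequate and 28.5 ± 4.70 CPM on the supplemented diet, without overlap, as for 9.14% of all genes (0.98 ± 0.20, adjusted p = 0.0578). Mlkl was called there in 4 of 14 alternatives, namely by DESeq2 (adjusted p = 0.00205) and by edgeR without the filter on low counts (0.0264), with the compared groups alone (0.0101) or without replicate 4 of the unirradiated supplemented group (0.0323). This comparison shares the unirradiated supplemented libraries with the fall of Mlkl above.

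**Figure D5:**
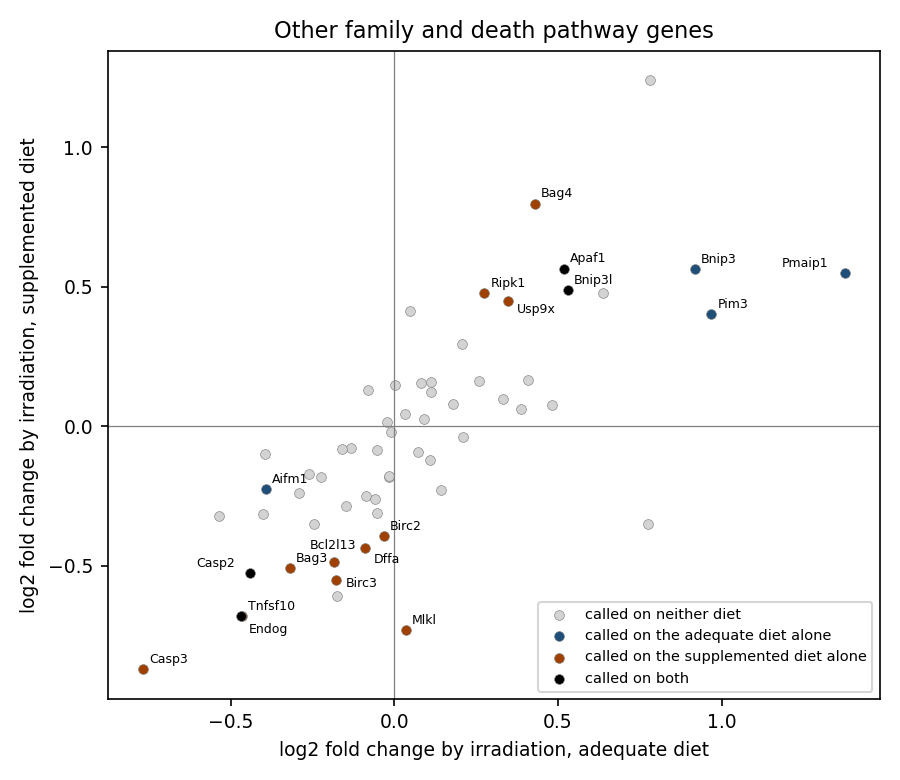
Log2 fold change by irradiation on the adequate diet (x) and the supplemented diet (y) for the 60 tested genes of the 4 lists, each set against the unirradiated libraries of its own diet, and named where called. Of the 60, 41 were called on neither diet, 4 on the adequate diet alone, 11 on the supplemented diet alone and 4 on both (Bnip3l, Apaf1, Casp2 and Tnfsf10) in the fit of all 16 libraries, which called none of them for the interaction of diet and irradiation.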

How the data were processed

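RNA of the proximal jejunum was sequenced in 16 libraries. Per the labels' protocols, RNA depleted of ribosomal RNA was fragmented, and libraries followed a small RNA protocol. Per the submitters' processing notes, the tools were Bowtie2 2.2.9, RSEM 1.3.0 and edgeR 3.2.4, on build NCBIM37; strand use in counting is not given in the sources used here. The authors deposited RSEM expected counts, which were rounded, and TPM values, which served to check the order of levels and, chosen after seeing the data, the directions of change. Effective lengths are the deposited ones.

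Groups came from the labels. Symbols came from gene name tables by Ensembl ID (32897 of 37620 matched), whose annotation is of a later build than the files. The genes and lists were chosen with earlier results of these data known. Genes were kept by filterByExpr, scaled by TMM and tested two-sided with edgeR 4.0.16 (quasi-likelihood, robust, a mean per group over 16 libraries) in R 4.3.3, with Benjamini-Hochberg adjustment per comparison. Alternatives were DESeq2 size factors, DESeq2 1.42.0, limma 3.58.1 voom, no filter, the compared groups alone, each replicate left out and, added after seeing the data, the 3 libraries under 4 M counts left out. The fit was tested on simulated data. At most 3 called genes per list and comparison, those with the smallest adjusted p, were named, though Dffa of the mitochondrial death pathway was left out. Bak1, Bid and Bcl2 overlap other counted genes on the opposite strand. In the later annotation Bcl2l15 overlaps the protein-coding gene Gm43064 on the same strand, which was not among the counted genes. Whether reads of Gm43064 were counted as Bcl2l15 was not tested. Promoter windows are RefSeq's, matched by symbol. At these depths 5 to 14 counts stood behind each unirradiated Bcl2l15 value, which limits its fold changes.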

Additional observations from a re-analysis of the deposited data

Results flagged for a closer look

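Bcl2l1, which encodes Bcl-xL, had a library that stood apart from its group. In the unirradiated adequate group the highest library had 54.4 CPM and the other 3 lay between 42.1 and 42.9 CPM, so the gap to the nearest library took 0.922 of the range of the group on the log2 scale. That library, replicate 1, is the smallest of the 16, with 2.567 M counts. Of 40 group checks over the 10 genes this was the 1 that passed, and chance passes about 1 in 20.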

How the results depend on the processing

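No gene of the 10 was called between diets or for the interaction in any alternative. With each replicate left out, 1 to 2 of the 10 were called on the adequate and 1 to 2 on the supplemented diet, where the second were Mcl1 and Bak1. Direction changed in at least 1 alternative for 10 of the 36 uncalled values of the other 9 genes, TPM apart. With a replicate left out, irradiation values ran from -0.0176 to 0.266 for Bok on the adequate diet, and on the supplemented diet from -0.23 to 0.17 for Bok and from -0.279 to 0.0074 for Bcl2l1. The diet values without irradiation ran from -0.0237 to 0.101 for Bak1, -0.10 to 0.15 for Bcl2l11 and -0.0532 to 0.135 for Bcl2l14. After irradiation they ran from -0.20 to 0.54 for Bcl2l15, -0.254 to 0.082 for Bak1, -0.147 to 0.0176 for Bcl2l11 and -0.0063 to 0.22 for Bmf. Without the 3 smallest libraries, the diet values after irradiation were -0.0361 for Bcl2, 0.18 for Bak1 and -0.0368 for Bmf. Over all genes, calls with a replicate left out ran from 1231 to 2478 on the adequate and from 1434 to 3627 on the supplemented diet; without the 3 smallest libraries 1438 were called on the adequate diet. Between diets without irradiation 33 became 234 with DESeq2, 52 with voom, 139 with the compared groups alone, 0 without the 3 smallest libraries and 0 to 49 with a replicate left out. After irradiation 0 became 9 with DESeq2, and the interaction 1. With TPM in place of scaled counts, irradiation values on the adequate and supplemented diets were -0.766 and -0.951 for Bcl2, -0.75 and -0.997 for Mcl1, -0.659 and -0.899 for Bid, -0.74 and -1.36 for Bcl2l11, -1.19 and -1.11 for Bmf, and -1.03 and -1.27 for Bok. Relative to the median gene, directions turned for Bmf on the adequate diet (-0.106) and for Bcl2l1 (0.072), Bcl2l11 (-0.0919) and Bok (-0.0026) on the supplemented diet. The cause was not tested. No paired analysis was possible because replicate numbers follow the order of deposit and pair no libraries.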
